A study of Mus musculus with 8 samples.

Results

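The 5 keratin genes Krt1, Krt10, Krt4, Krt13 and Krt79, which mark differentiated stratified epithelium, were followed on 8 arrays of mouse skin tumour cells. All probe sets that the platform annotation assigns to these genes were taken, which gave 8 of 45141 probe sets and 5 of 17097 genes: 3 probe sets for Krt13, 2 for Krt4 and 1 each for Krt1, Krt10 and Krt79. The RNA came from Epcam-sorted tumour cells, Epcam being a surface protein of epithelial cells. The 4 groups had 2 arrays each: NR2F2-overexpressing papilloma (GOF, for gain of function), control papilloma (genotype NR2F2 WT), carcinoma with Nr2f2 removed (labelled LOF, genotype NR2F2 KO, called KO here) and control carcinoma (NR2F2 WT). In the KO, CreER was driven by the keratin 5 promoter (K5CreER), which is active in basal keratinocytes, and both Nr2f2 alleles were floxed; the control carcinomas lacked Cre. What drove the overexpression, the age of the mice and the way in which the tumours were induced are not given in the sources used here, nor is it said whether replicates are different mice.

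Keratins are the filament proteins of epithelial cells, and a filament needs 1 type I and 1 type II partner. Basal cells of stratified epithelium make Krt5 and Krt14. When they leave the basal layer of the epidermis they switch to Krt1 (type II) with Krt10 (type I), whereas in the oral and oesophageal mucosa the suprabasal pair is Krt4 (type II) with Krt13 (type I). Krt79 is a type II keratin of the hair follicle opening, the infundibulum, and of the sebaceous duct. In chemically induced mouse skin tumours, loss of Krt1 and Krt10 and the appearance of Krt13 are classical signs of progression.

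The RefSeq promoter table (build GRCm38.p6) held entries for 3 of the 5 genes, Krt10, Krt13 and Krt79. The first entry of each is printed 5′ to 3′, from 250 bases before to 50 bases after the annotated start, because these promoters belong to genes with different patterns on the arrays: an epidermal keratin, a mucosal keratin and Krt79. The windows are chr11:99389315-99389614 for Krt10, chr11:100121517-100121816 for Krt13 and chr15:101940275-101940574 for Krt79, all on the minus strand. Capitals mark matches to 4 motifs, searched on both strands. The core of the TATA box was searched as TATAAA. The half-site of nuclear receptors, the protein class of NR2F2, was searched as AGGTCA. The AP-1 site was searched as TGANTCA and the GT box as CACCC. No printed matches overlap.
Krt10: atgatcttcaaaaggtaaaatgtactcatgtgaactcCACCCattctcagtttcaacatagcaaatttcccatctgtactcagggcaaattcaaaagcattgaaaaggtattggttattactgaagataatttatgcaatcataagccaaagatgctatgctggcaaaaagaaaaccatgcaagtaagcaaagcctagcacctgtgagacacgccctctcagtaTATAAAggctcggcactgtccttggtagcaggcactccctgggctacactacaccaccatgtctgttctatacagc
Krt13: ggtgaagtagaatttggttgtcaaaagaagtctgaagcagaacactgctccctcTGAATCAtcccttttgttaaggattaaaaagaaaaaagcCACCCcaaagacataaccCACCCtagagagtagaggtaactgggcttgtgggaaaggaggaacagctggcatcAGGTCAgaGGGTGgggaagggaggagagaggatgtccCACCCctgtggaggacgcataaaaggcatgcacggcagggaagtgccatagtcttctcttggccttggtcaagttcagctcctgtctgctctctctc
Krt79: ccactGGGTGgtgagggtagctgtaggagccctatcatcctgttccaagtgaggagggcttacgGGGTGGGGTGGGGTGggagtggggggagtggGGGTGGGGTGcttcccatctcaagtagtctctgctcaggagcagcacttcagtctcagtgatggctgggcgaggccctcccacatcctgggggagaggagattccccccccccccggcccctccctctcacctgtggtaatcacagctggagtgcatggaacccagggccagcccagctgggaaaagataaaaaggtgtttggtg

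The Krt10 promoter held TATAAA at position -26 from the annotated start and 1 CACCC. The Krt13 promoter held 1 AGGTCA, 1 TGANTCA and 4 CACCC matches, and the Krt79 promoter held 6 CACCC matches and none of the other 3 motifs. Of all 32851 promoters in the table, 13.6% held TATAAA, 16.3% AGGTCA, 7.81% TGANTCA and 57.5% CACCC. Each match is a run of letters and was not tested as a site. Krt13 has a second annotated start in the table, whose window held 2 TGANTCA matches and 1 CACCC match.

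The deposited values are log2 values from the RMA algorithm. The papilloma columns (medians 3.12 to 3.16) and the carcinoma columns (medians 5.08 to 5.15) were on different scales and were treated as normalised separately, so no level was compared between tumour types. Background was set on each array as its highest value among 44 control probe sets for non-mouse sequences, which gave 3.09 to 3.33 for papilloma and 4.95 to 5.01 for carcinoma. Nr2f2 followed the labels, at 11.43 and 11.47 on the GOF arrays against 2.80 and 2.55 on the control papilloma arrays, and at 4.77 and 4.996 on the KO arrays against 7.93 and 8.14 on the control carcinoma arrays. The basal keratins Krt5 and Krt14 lay at 12.02 or above on all 8 arrays, so the markers of keratinocytes were present throughout. Markers of some non-epithelial cell types were higher on the GOF arrays. The mean of 9 macrophage genes was 5.65 and 6.65 against 3.29 and 3.25 on the control papilloma arrays. That of 8 endothelial genes was 5.64 and 5.79 against 3.67 and 3.46. All 9 macrophage genes were above background on both GOF arrays, against 5 and 7 on the control papilloma arrays. Past the adjusted threshold, 2 macrophage, 5 endothelial and 3 of 4 Langerhans and dendritic cell genes rose. No fibroblast, T cell or melanocyte gene passed. The mean of 6 fibroblast genes was 8.70 and 9.21 on the GOF arrays against 8.60 and 7.06 on the control papilloma arrays. The 2 melanocyte genes tested had negative log2 fold changes, and Csf1r of the macrophage list differed little (0.08). Epcam stood at 9.004 and 8.68 on the GOF arrays against 10.17 and 10.57 on the control papilloma arrays (log2 fold change -1.53, limma adjusted p = 0.0372). Control carcinoma replicate 2 stood apart: its macrophage mean was 6.89 and the mean of 6 fibroblast genes 8.25, against 5.23 to 5.52 and 5.97 to 6.65 on the other 3 carcinoma arrays. The carcinoma values of the 5 keratins and the medians of the gene lists are therefore also given without it, and the part of these cells in the keratin values was not tested. In RNA from a cell population, fewer cells of a type and less RNA per cell cannot be told apart.

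**Figure D1:**
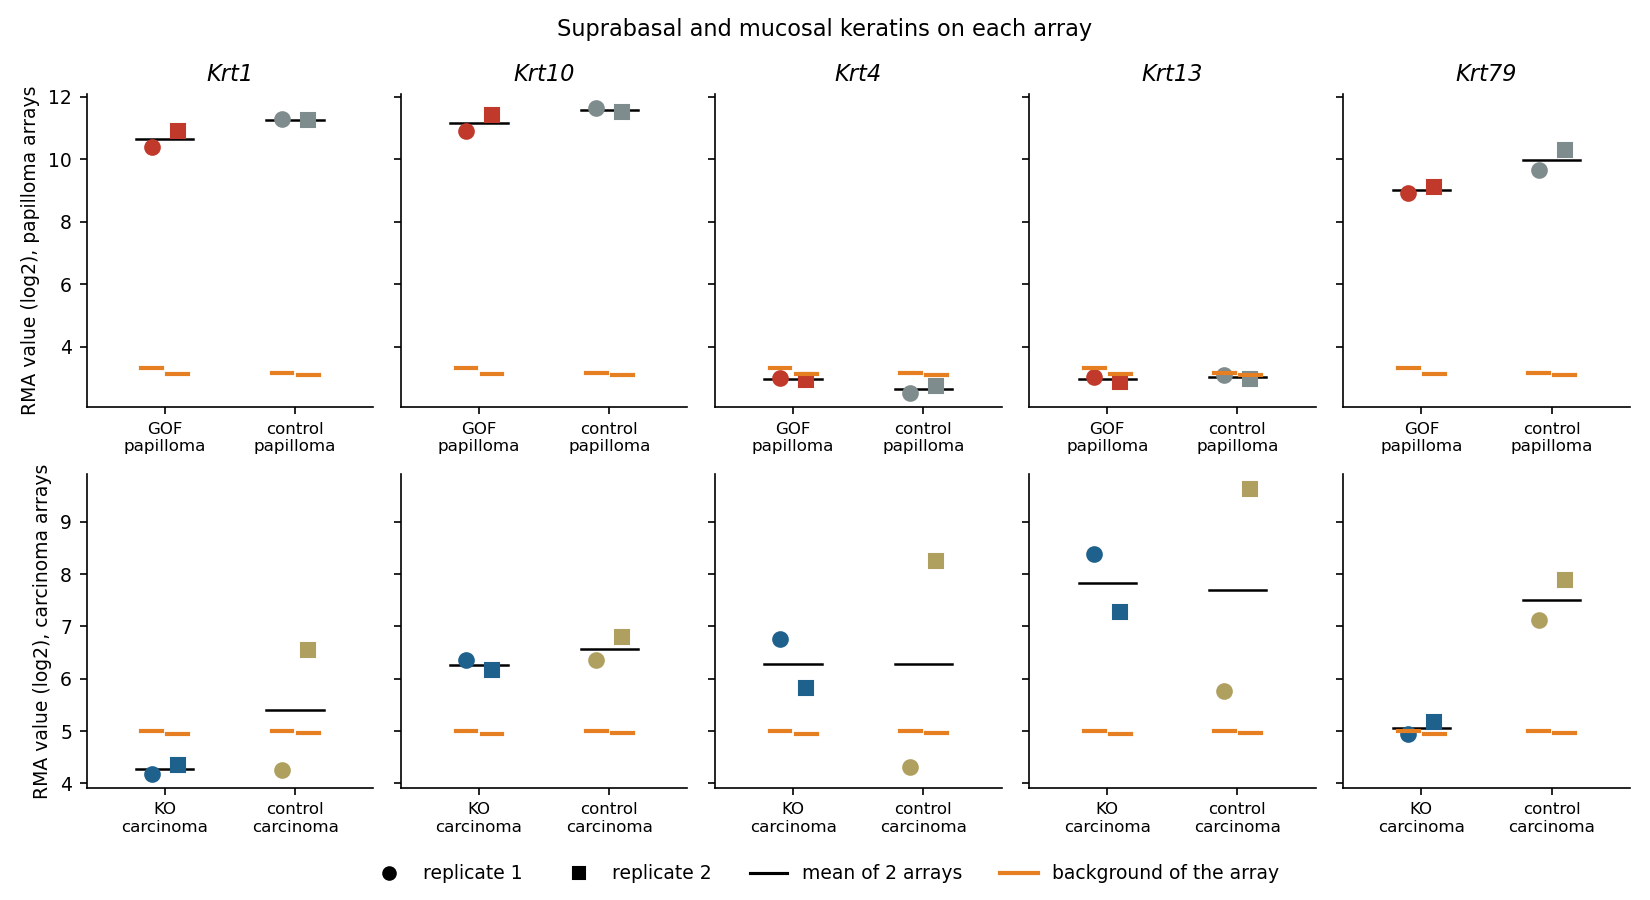
RMA values (log2) of the probe set that stands for each keratin, with GOF and control papilloma in the upper row and KO and control carcinoma in the lower row. Circles are replicate 1, squares replicate 2, black lines the mean of the 2 arrays, and orange lines the background of each array; Krt79 lies at 4.95 and 5.17 on the KO arrays, near background, and the 2 control carcinoma arrays are far apart for Krt4, Krt13 and Krt1.

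With NR2F2 overexpressed in papilloma, the epidermal pair Krt1 and Krt10 and the follicular keratin Krt79 had lower means, none past the test, while the probe sets that stand for the mucosal pair Krt4 and Krt13 were at or below background in both groups. Krt1, the type II partner of the epidermal pair, stood at 10.38 and 10.91 on the GOF arrays and at 11.28 and 11.24 on the control arrays. Both GOF arrays lay below both control arrays, and the means were 10.65 ± 0.37 in GOF and 11.26 ± 0.03 in control papilloma (SD, n = 2 each), 1.53-fold lower. On the log2 scale the difference was -0.61 (SE 0.65, limma adjusted p = 0.732). Krt10, its type I partner, stood at 10.90 and 11.42 on the GOF arrays and at 11.65 and 11.51 on the control arrays. The groups again did not overlap, although GOF replicate 2 was close to a control array; the difference was -0.42 on the log2 scale (SE 0.23, limma adjusted p = 0.420). The partners thus differed in the same direction by a similar step, and GOF replicate 1 was the lowest array for each.

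Krt79 had the largest difference of the 5 in papilloma. It stood at 8.92 and 9.12 on the GOF arrays and at 9.66 and 10.31 on the control arrays, with no overlap. The means were 9.02 ± 0.14 in GOF and 9.98 ± 0.46 in control papilloma (SD, n = 2 each), 1.95-fold lower, with a log2 fold change of -0.96 (SE 0.31, 95% interval -1.69 to -0.23, limma adjusted p = 0.191). Krt4 stood at 2.99 and 2.94 on the GOF arrays and at 2.54 and 2.77 on the control arrays. Krt13 stood at 3.05 and 2.89 on the GOF arrays and at 3.09 and 2.97 on the control arrays. All 8 of these values were at or below the background of their arrays, so no fold is given for the mucosal pair in papilloma.

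None of the 5 genes passed limma's adjusted threshold of 0.05 in GOF papilloma, where 1.21% of all 13939 genes tested did (0.76% higher and 0.452% lower), and 1 of them, Krt79, had an unadjusted p under 0.05, against 16.4% of all genes. The GOF arrays lay wholly below the controls for 3 of the 5, against 21.3% of all genes. None was at least 1.5-fold lower in all 4 array pairs, against 2.19% of all genes, or at least 1.5-fold higher, against 3.9%. The median log2 fold change of the 5 was -0.42, and that of all genes 0.02. The SE of Krt1 rests on the spread that the carcinoma arrays share with it: fitted on the 4 papilloma arrays alone it was 0.22, and the adjusted p was 0.243.

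In carcinoma without Nr2f2, Krt79 was lower on both KO arrays, while Krt4 and Krt13 differed more between the 2 control arrays than between the groups, and Krt1 was above background on 1 array only. Krt79 stood at 4.95 and 5.17 on the KO arrays and at 7.12 and 7.88 on the control arrays. The KO arrays were close to background (5.01 and 4.95), replicate 1 being below it, and both lay far below either control. The means were 5.06 ± 0.15 in KO and 7.50 ± 0.54 in control carcinoma (SD, n = 2 each), 5.44-fold lower. The log2 fold change was -2.44 (SE 0.31, 95% interval -3.17 to -1.71), with an unadjusted p of 0.00012 and a limma adjusted p of 0.110, so it did not pass over all genes. By p it ranked 15 of 13939, and 8 genes, itself included, had a log2 fold change as low.

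The size of the Krt79 difference was similar without any 1 array, whereas its call was not. The log2 fold change ran from -2.82 without control carcinoma replicate 1 to -2.06 without control carcinoma replicate 2. The adjusted p was 0.0278 without control replicate 1 and 0.0388 with a trended and robust variance prior, both past the threshold, and 0.0745 to 0.351 under all other alternatives run. Krt79 was the 1 keratin of the 5 that was at least 1.5-fold lower in all 4 array pairs, against 1.48% of all genes, and none was at least 1.5-fold higher, against 1.42%.

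In carcinoma the mucosal pair was above background on all 4 arrays, except Krt4 on control replicate 1. Krt4 stood at 6.76 and 5.82 on the KO arrays and at 4.32 and 8.25 on the control arrays. The KO arrays lay between the 2 controls, and the group means were 6.29 ± 0.67 in KO and 6.28 ± 2.77 in control carcinoma (SD, n = 2 each), a log2 fold change of 0.004 (SE 1.11, 95% interval -2.65 to 2.66). Krt13 stood at 8.38 and 7.27 on the KO arrays and at 5.76 and 9.64 on the control arrays. Its order over the 4 arrays was the same as that of Krt4, with means of 7.82 ± 0.78 in KO and 7.70 ± 2.74 in control carcinoma (SD, n = 2 each) and a log2 fold change of 0.13 (SE 1.11, 95% interval -2.53 to 2.78). These intervals use a spread shared with the papilloma arrays, where these probe sets were at or below background. On the 4 carcinoma arrays alone the SE was larger, 1.42 for each gene. The intervals span differences of several-fold either way, so the arrays set no narrow limit on a change in either gene. Their direction followed which control was used: without control carcinoma replicate 1 the log2 fold changes were -1.96 for Krt4 and -1.81 for Krt13, and without control carcinoma replicate 2 they were 1.97 and 2.07, none past the threshold (limma adjusted p = 0.0919 to 0.183).

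The gap between the control carcinoma arrays was among the widest of all genes for the mucosal pair. Of 13939 genes, Krt4 (3.92) and Krt13 (3.88) came next after Sprr3 by the difference between those arrays. Sprr3, a small proline-rich protein of the oesophagus and a gene of the mucosal list, differed by 4.56 (8.69 on replicate 2 and 4.13, below background, on replicate 1). It was singled out after its values were seen. The next were the haemoglobin gene Hbb-b2 (3.87) and the Y-linked gene Eif2s3y (3.65). Eif2s3y stood at 3.79 on control replicate 1, below the background of 4.99, and at 7.45 on control replicate 2. Whether these arrays came from mice of different sex, and any part of sex in the keratin gaps, was not tested. The median difference over all genes was 0.20. Krt4 was below background on control replicate 1, so it was at least 9.53-fold higher on control replicate 2, and Krt13 was 14.7-fold higher. The KO arrays differed less, with replicate 2 minus replicate 1 at -0.94 for Krt4 and -1.10 for Krt13.

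Of the epidermal pair in carcinoma, Krt10 was above background on all 4 arrays and Krt1 on 1. Krt1 stood at 4.19 and 4.35 on the KO arrays and at 4.26 and 6.54 on the control arrays. Control replicate 2 was the 1 array above background, and the other 3 lay close together below it. With both KO arrays below background (mean 4.27 ± 0.11), Krt1 in KO was at least 1.34-fold lower than the control mean of 5.40 ± 1.62 (SD, n = 2 each; log2 fold change -1.13, SE 0.65, limma adjusted p = 0.515). Without control replicate 2 the log2 fold change of Krt1 was 0.01, and without control replicate 1 it was -2.27 (limma adjusted p = 0.0292). Krt10 stood at 6.36 and 6.17 on the KO arrays and at 6.36 and 6.79 on the control arrays. KO replicate 1 and control replicate 1 were at the same level to 2 decimals; the difference was -0.31 on the log2 scale (SE 0.23, limma adjusted p = 0.626), and -0.10 without control replicate 2.

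In KO carcinoma none of the 5 genes passed limma's adjusted threshold, where 0.0143% of all genes did, each of those lower (0% higher), and 1 of the 5, Krt79, had an unadjusted p under 0.05, against 13.8% of all genes. The groups did not overlap for 2 of the 5, Krt10 and Krt79, both lower in KO, against 19.1% of all genes. The median log2 fold change was -0.31 for the 5 genes and 0.01 for all genes. Without control carcinoma replicate 2 the median of the 5 was 0.01. Without control carcinoma replicate 1 the 5 log2 fold changes ran from -2.82 (Krt79) to -0.53 (Krt10), all negative. An exact permutation test of 2 arrays against 2 cannot go below p = 0.333, so it could not have passed for any of them.

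**Figure D2:**
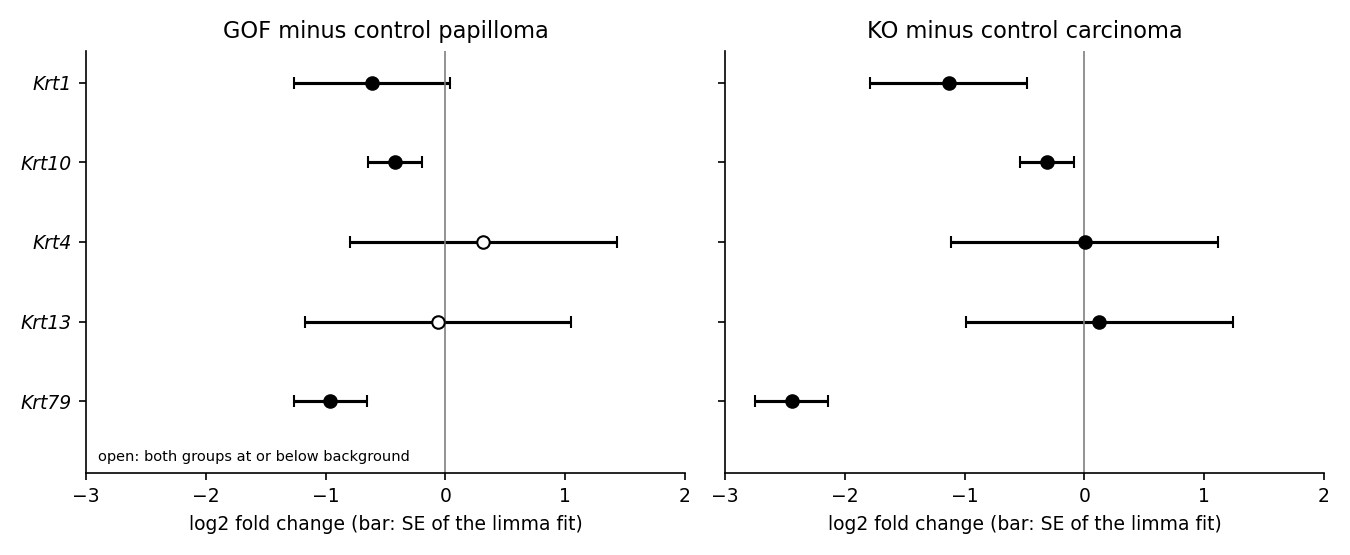
Log2 fold changes of the 5 keratins, GOF minus control papilloma on the left and KO minus control carcinoma on the right; points are limma estimates, bars their SE, and open points have both groups at or below background. Krt79 is lower in both comparisons (-0.96 and -2.44), and the bars of Krt4 and Krt13 (SE 1.11) cover 0, as does that of Krt1 in papilloma. None of the 5 passed limma's adjusted threshold in either comparison, also where the bar does not reach 0.

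Probe sets of the same gene were compared for the mucosal pair. The other Krt4 probe set, of a type that can also bind related transcripts, stood at 5.99 and 5.44 on the KO arrays and at 4.503 and 7.41 on the control carcinoma arrays, the same order of arrays with a smaller range. Its log2 fold change was -0.24 (SE 0.82), not past the test among 32394 probe sets, of which 0.00926% passed. In papilloma it stood at 2.98 and 3.20 on the GOF arrays and at 3.27 and 2.86 on the control arrays, just above background on GOF replicate 2 and control replicate 1. Its difference there was 0.02, where 0.583% of probe sets passed. The other 2 Krt13 probe sets were at or below background on all 8 arrays, between 2.33 and 2.71 in papilloma and between 3.89 and 4.54 in carcinoma, and did not pass the filter. So 6 of the 8 probe sets were tested, and the Krt13 values rest on 1 of 3. Krt1, Krt10 and Krt79 have a single probe set each, with no second one to set beside it.

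Krt4, Krt79 and Krt78 are neighbours in the type II keratin cluster on chromosome 15, in this order, and did not vary alike. The log2 fold changes in KO carcinoma were 0.004 for Krt4, -2.44 for Krt79 and 0.14 (SE 0.26) for Krt78, a suprabasal keratin. In GOF papilloma Krt79 was at -0.96 and Krt78 at 0.85 (SE 0.26, limma adjusted p = 0.177), on opposite sides of 0. On chromosome 11 the neighbour of Krt13 is Krt15, a keratin of basal and follicle stem cells, which fell by 2.47 on the log2 scale in GOF papilloma (SE 0.26, limma adjusted p = 0.0185), where Krt13 was not above background. In KO carcinoma Krt15 had a log2 fold change of -0.16 (SE 0.26).

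The genes most like each keratin were found by Pearson r over the 8 arrays, after each gene was centred on the mean of its tumour type, as a description of arrays that share a table and, within each tumour type, their control arrays. For Krt4 they were its partner Krt13 (r = 0.985), the interleukin family gene Il1f9 (0.969) and the G protein subunit gene Gnai1 (0.962), and for Krt13 they were Krt4, Gnai1 (0.976) and Il1f9 (0.937). For all of these, control carcinoma replicate 1 was the lowest carcinoma array and control replicate 2 the highest. The probe sets that stand for Krt4 and Krt13 were below background in papilloma, so this likeness rests on the carcinoma arrays. For Krt79 they were Rassf3 (0.971), the complement regulator gene Cd55 (0.966) and Sowahb (0.961), with log2 fold changes in KO carcinoma of -1.54, -2.63 and -1.81. None of the 3 passed the adjusted threshold (limma adjusted p = 0.110 to 0.122). All 3 were lower on both KO arrays than on either control, which follows from choosing them by likeness to Krt79. On the KO arrays Cd55 (4.10 and 5.10) was below or close to background (5.01 and 4.95).

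For Krt1 the most alike of 2369 candidate genes were Plbd1 (r = 0.982), Trem3 (0.974) and the ephrin receptor gene Epha3 (0.971). Each was highest among the carcinoma arrays on control replicate 2. The largest centred value of Krt1 (1.71) was on that array, and Trem3 was above background on that array alone. For Krt10 the most alike genes were Adamtsl1 (0.967), Ankrd35 (0.965) and Mbp (0.951), with log2 fold changes of -0.14 to -0.70 in KO carcinoma. The partners Krt1 and Krt10 had r = 0.804. It is not ranked against that of Krt4 with Krt13, as the pairs were below background on different arrays. Krt1 was above it on 1 carcinoma array only. Krt79 had r = 0.746 with Krt1 and 0.146 with Krt4.

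**Figure D3:**
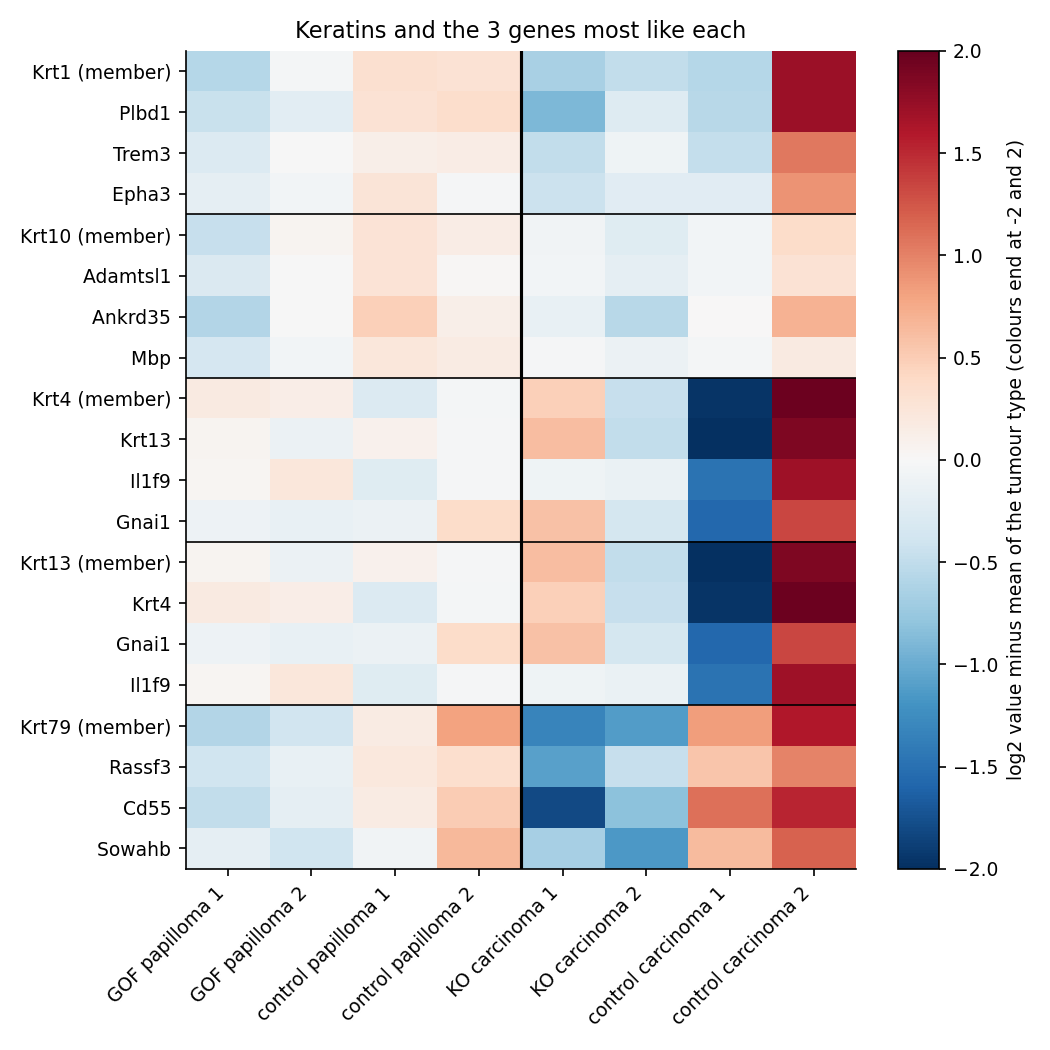
Log2 values minus the mean of the tumour type, for the 5 keratins and the 3 genes most like each, with papilloma arrays left of the black line and carcinoma arrays right of it; on each side the GOF or KO arrays come before their controls. The blocks of Krt4 and Krt13 are set by the 2 control carcinoma arrays, and the block of Krt79 is lower on both KO arrays than on either control. The genes of a block were chosen by likeness to its keratin, so a shared pattern follows from the choice.

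Other genes of suprabasal and mucosal differentiation changed in both directions in GOF papilloma. Their lists were chosen with earlier results of these data known, so the counts below are descriptions of the listed genes. Of 18 spinous and granular layer genes tested, 2 rose, the desmosomal cadherin genes Dsg1a (log2 fold change 1.27, limma adjusted p = 0.0417) and Dsg1b (1.64, adjusted p = 0.0372), and 1 fell, the metallothionein gene Mt4 of stratified epithelium (-4.39, adjusted p = 0.00132). Their median was 0.42, against 0.02 for all genes, and 13 of the 18 were positive, the opposite sign to Krt1 and Krt10. The loricrin gene Lor, of the cornified envelope, stood at 6.88 and 7.62 on the GOF arrays against 4.82 and 5.61 on the control arrays (2.04, SE 0.61, adjusted p = 0.169). The protease gene Klk7 was at -1.13, or -0.16 without control papilloma replicate 2, and the desmocollin gene Dsc1 at -0.49, or 0.04 without GOF replicate 1. Of 14 mucosal differentiation genes, 2 fell, the mucus protein gene Fcgbp (-4.23, adjusted p = 0.0128) and the aldehyde dehydrogenase gene Aldh3a1 (-3.47, adjusted p = 0.0267), and none rose. The median of the mucosal list was 0.36, and the next by p had positive values that did not pass: the transcription factor gene Pitx1 (2.81), the protease gene Tmprss11e (2.41) and Mal (2.89).

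Among genes of the compartment that Krt79 marks, most values in GOF papilloma were negative. Of 10 infundibulum and sebaceous duct genes tested, the defensin gene Defb6 fell (-2.35, limma adjusted p = 0.0446) and none rose. The median was -0.42, against 0.02 for all genes, and 8 of 10 were negative. Among them were the stem cell gene Lrig1 (-1.95), the desaturase gene Scd1 (-1.30) and the cystatin gene Cst6 (-1.02), none past the threshold. Another, Atp6v1c2 (-0.13), was at or below background in both groups. The 2 positive genes were Klk10 (1.46) and Prdm1 (0.47), neither past the threshold. By the rule of 1.5-fold in all 4 array pairs, 1 of the 10 was higher, Klk10, against 3.9% of all genes. By the same rule 3 were lower, against 2.19% of all genes. Of 16 regulators of epidermal differentiation 2 had an unadjusted p under 0.05, against 16.4% of all genes. None passed in either direction, and the median was -0.16. The vitamin D receptor gene Vdr was closest (-0.87, limma adjusted p = 0.0522), and the transcription factor genes Zfp750 and Grhl1 were at 0.71 and -0.61. Of the 3 other suprabasal and mucosal keratins tested none passed, with Krt80 at -0.90 (-0.37 without control papilloma replicate 2), Krt23 at -0.14 (0.48 without it) and Krt78 as given above. Of the 3 basal keratins, Krt15 fell, and Krt5 (0.03) and Krt14 (0.01) differed little between the groups. Over the 6 lists, 20 of 64 genes (31.2%) had an unadjusted p under 0.05, 10 higher and 10 lower, against 16.4% of all genes. Of the 7 list genes past the threshold in GOF papilloma, 3 passed without control papilloma replicate 1, 1 without control papilloma replicate 2, 1 without GOF replicate 1 and 0 without GOF replicate 2. The macrophage, endothelial and dendritic cell markers above moved with the same arrays, and their part in these list values was not tested.

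In KO carcinoma no gene of these 6 lists passed limma's adjusted threshold. At an unadjusted p under 0.05 there were 9 of their 64 genes (14.1%), 1 higher and 8 lower, a share close to the 13.8% of all genes. Of 14 mucosal genes 12 were negative, with a median of -0.70, against 0.01 for all genes. This median was -0.20 without control carcinoma replicate 2 and -1.23 without control carcinoma replicate 1. The smallest p-values were those of the protease gene Tmprss11d (-2.01, or -1.32 without control replicate 2), the envelope gene Sprr1b (0.87, or 0.90) and the matrix protein gene Ecm1 (-0.88, or -0.65). The median of the 18 spinous and granular genes was 0.07, or 0.36 without control replicate 2 and -0.21 without control replicate 1. First by p were the calmodulin-like gene Calml3 (-1.57, or -0.65 without control replicate 2), Krtdap (1.27, or 2.42) and the protease gene Casp14. Casp14 was above background on control replicate 2 alone, and its lower bound came out under 1-fold, so no fold is given.

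Infundibulum and sebaceous duct genes had a median of -0.36 in KO carcinoma, -0.43 without control replicate 2 and 0.05 without KO replicate 2. Of the 10 tested, 6 were negative and 4 positive, and the largest positive value was that of Klk10 (0.79). The surface protein gene Plet1 was at -0.70 (SE 0.15, limma adjusted p = 0.151), or -0.65 without control replicate 2, and Cst6 at -0.55, or -0.42. Defb6 was above background on control replicate 2 alone and was at least 1.13-fold lower in KO. The regulators had a median of -0.06, or -0.27 without control replicate 2 and 0.03 without control replicate 1. Among them Maf (-0.97, or -1.18 without control replicate 2), Grhl1 (-0.72, or -0.52) and Grhl3 (0.58, or 0.38) were first by p. The other suprabasal and mucosal keratins had a median of -1.06, or -0.24 without control replicate 2, with Krt23 at -1.68, or -0.64, and Krt80 at -1.06, or -0.24. Krt78 was at 0.14. The 3 basal keratins ran from -0.16 to -0.07, with a median of -0.08, or -0.12 without control replicate 2.

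Beside these lists stand the differences between the control carcinoma arrays. On control replicate 2, 11 of 18 spinous and granular genes and 8 of 14 mucosal genes were at least 2-fold higher than on replicate 1, as were 8 of 9 macrophage and 6 of 6 fibroblast genes, against 600 of all 13939 genes. None of the 16 regulators and none of the 3 basal keratins was.

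**Figure D4:**
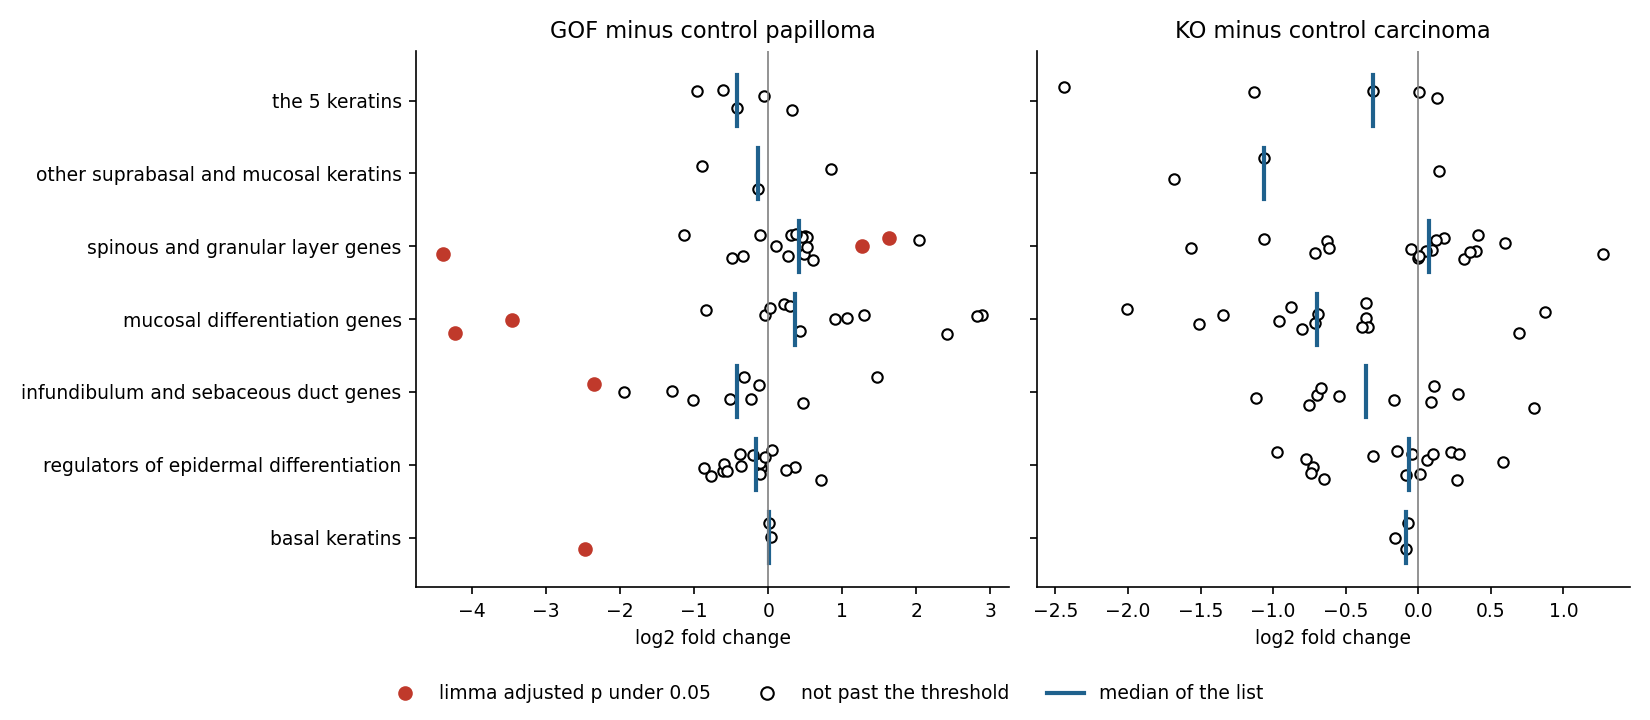
Log2 fold changes of the genes tested in each list, GOF minus control papilloma on the left and KO minus control carcinoma on the right, with the blue bar at the median of the list. Filled points pass limma's adjusted threshold; all 7 are in papilloma, and the mucosal median is 0.36 there and -0.70 in carcinoma (-0.20 without control carcinoma replicate 2).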

How the data were processed

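Expression was measured on 8 Affymetrix mouse genome arrays. The deposited table holds log2 values from RMA, per the labels, which name the affy package without versions. Of 45141 probe sets, 104 were controls, and 28898 had 1 gene symbol in the platform annotation (28689 matched by Entrez number to RefSeq, assembly GRCm38.p6, used for names and gene order), 551 had several and 15588 none. Probe sets above the median of all values (4.23) on 2 or more of 8 arrays entered the fit, and the brightest single-gene one stood for its gene (13939 genes). limma 3.58.1 in R 4.3.3 was fitted with 1 mean per group and 1 spread per gene (4 residual degrees of freedom, 2.67 from the prior), with Benjamini-Hochberg adjustment over all genes and a threshold of 0.05; the fit was tested on simulated data. Contrasts were GOF minus control papilloma and KO minus control carcinoma. The difference between those effects was not tested, since the columns of the tumour types were treated as normalised separately. With no statement on separate animals, the p-values reflect the spread between these arrays. How much of it is technical is not known, and the 2 control carcinoma arrays differed in the Y-linked gene Eif2s3y. The number of arrays limits the precision. With the dimmer group below background on both arrays, the fold is a lower bound against, per array, the higher of background and the gene's own value. Named genes were the 5 keratins, list genes past the threshold, up to 3 more per list and comparison with the smallest p, the 3 genes most like each keratin (among genes with at least 0.5 of its centred SD), Nr2f2, Epcam and the basal keratins, plus neighbours by gene order. Csf1r, Klk10, Prdm1 and Atp6v1c2 were named in addition, after their values were seen. The keratins and lists were chosen with earlier results of these data known. Same-numbered arrays were not paired by any label. Alternatives covered filters, normalisation, probe set choice, variance prior, replicate block and leaving out each array.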

Additional observations from a re-analysis of the deposited data

How the results depend on the processing

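The count of keratins past the threshold was 0 in both comparisons under every alternative run, except that in KO carcinoma Krt79 passed with a trended and robust variance prior (count 1) and Krt79 and Krt1 passed without control carcinoma replicate 1 (leave-one-out range 0 to 2). Leaving out 1 array in turn, 0 to 3 keratins lay past 1.5-fold in all remaining array pairs in GOF papilloma (3 without GOF replicate 2) and 1 to 4 in KO carcinoma (4 without control replicate 1, 3 without control replicate 2), with fewer pairs having to hold. Of the list genes, 7 passed in GOF papilloma, 1 with the replicate block and 0 to 10 without 1 array; in KO carcinoma 0 passed, and 0 to 3 without 1 array (3 without control replicate 1). Krt4 in KO carcinoma turned to -0.38 with quantile normalization of all 8 arrays, -0.0165 with it within each tumour type and -0.12 with the mean of probe sets, and ran from -1.96 to 1.97 without 1 array. Krt13 turned to -0.10 with quantile normalization of all 8 arrays and ran from -1.81 to 2.07. Krt1 in KO carcinoma ran from -2.27 to 0.0102 and Krt13 in GOF papilloma from -0.14 to 0.0161. The cause of these turns was not tested. The filter within each tumour type removed Krt1 from the carcinoma fit and Krt13 from the papilloma fit. No label pairs the arrays by replicate number. Deviations of same-numbered arrays correlated at 0.0018 in papilloma and 0.125 in carcinoma, which cannot exclude pairing with 2 arrays per group. The replicate block changed no call of a keratin. A lone array left in a group is taken to vary like the other groups.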

Other observations

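Keratins and cornified envelope genes that did not pass the filter on low values were looked at after the results. Krt77, a type II keratin of the epidermis and the neighbour of Krt1, stood at 2.66 and 2.56 on the GOF arrays and at 2.77 and 4.47 on the control papilloma arrays, above background on control replicate 2 alone. The filaggrin gene Flg stood at 3.24 and 3.82 on the GOF arrays and at 3.604 and 5.21 on the control papilloma arrays, highest on the same array. Krt2, a type II keratin of the upper spinous layer, was below background on all 8 arrays.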
